A study of Mus musculus with 18 samples.

Results

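The genes described here are 10 that govern passage through G1: the D-type cyclins Ccnd1, Ccnd2 and Ccnd3, the E-type cyclins Ccne1 and Ccne2, the kinases Cdk4 and Cdk6, and the CDK inhibitors Cdkn1a, Cdkn1b and Cdkn2c. They were chosen by symbol as a functional set, by no threshold on their values but with earlier results of these data known, and were found by their Ensembl identifiers in both count tables. All 10 were present among the 54309 genes of the lymphocyte table and the 13759 genes of the macrophage table, and all 10 passed the filter on low counts in both (13594 and 13759 genes tested).

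D-type cyclins bind CDK4 or CDK6, and these kinases phosphorylate the retinoblastoma protein, which frees E2F factors to transcribe S phase genes and the E-type cyclins. Cyclin E then activates CDK2 and commits the cell to DNA replication. INK4 proteins, of which p18 (Cdkn2c) is one, block CDK4 and CDK6 directly, whereas the CIP/KIP proteins p21 (Cdkn1a) and p27 (Cdkn1b) bind the cyclin-CDK complexes themselves. In lymphocytes and macrophages the choice among D-type cyclins differs by cell type, and p21 is also a transcriptional target of p53.

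RNA was sequenced from cells sorted from livers of female C57BL6/J mice, 8 to 10 weeks old, 20 days after MC38 cells were injected into the spleen. MC38 is a mouse colon adenocarcinoma line that seeds liver metastasis (LM) from the spleen and leaves metastasis-free liver (MFL) around the nodules. Type 1 lymphocytes, gated as live, lineage-negative, CD45+ and NKp46+, were sorted from pools of 6 to 8 samples into MFL NK cells (CD49a-CD49b+), LM CD49a- NK cells (the same gate), LM CD49a+ NK cells (CD49a+CD49b+) and MFL ILC1 (CD49a+CD49b-), with 3 libraries each. Metastasis-associated macrophages (MAMs) were sorted from LM as CD45+CD11b+ cells with low or high F4/80, again with 3 libraries each and no pool size given. All mice of these groups carried MC38 tumors. LM was digested with Liberase whereas MFL was smashed and filtered, so site and dissociation cannot be told apart. The titles of the LM CD49a+ NK libraries call them ILC1, and they were grouped by their sorted phenotype. The 2 tables differ in library kit and in selection of the RNA, so a level in one was set beside a level in the other without a test.

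Lymphocyte libraries held 8795721 to 14386834 counts and MAM libraries 21278959 to 32267015. The replicates of the LM lymphocytes were far more scattered than the others, with a biological coefficient of variation of 1.25 for CD49a- and 1.09 for CD49a+ NK cells of LM, against 0.517 in MFL NK cells, 0.657 in MFL ILC1 and 0.160 to 0.164 in the MAMs. The 8 markers of type 1 lymphocytes summed to between 3679 and 8430 CPM (counts scaled to the library total after TMM normalization) in the 12 lymphocyte libraries. Of the 9 macrophage markers, Adgre1, C1qa, C1qb, C1qc and Mrc1 each averaged under 1 CPM in all 4 populations. All 9 summed to 781 to 1176 CPM in MFL NK cells and 41.2 to 164 CPM in MFL ILC1, led in every population by Itgam. Itgam encodes CD11b, which the paper found on most NK cells of MC38 metastases. Hepatocyte markers (11 genes) summed to 19.2 to 136 CPM in MFL NK cells, 48.7 to 101 CPM in MFL ILC1 and at most 13.1 CPM in LM cells. Erythroid markers (6 genes) summed to 82.3 to 911 CPM over the 12 libraries. The epithelial and tumor list (10 genes) summed to 67.2 to 104 CPM in MFL ILC1, 30.2 to 51.5 CPM in LM CD49a+ NK cells and at most 26.0 CPM elsewhere. Cdh1 led it in MFL ILC1 (mean 55.8 CPM) and LM CD49a+ NK cells (28.1 CPM). Krt8, Krt18, Krt19 and Krt20 each averaged under 1 CPM in every population. MFL ILC1 carried more T cell marker RNA than the others (249 to 681 CPM over 8 genes, led by Cd3g, against at most 35.7 CPM elsewhere). Cd3g alone averaged 472 CPM in MFL ILC1, whereas Cd3e, Cd8b1 and Cd5 each averaged under 1 CPM there. The 9 macrophage markers summed to 10420 to 13140 CPM in F4/80low and 20140 to 26600 CPM in F4/80high MAMs. In a bulk library, fewer expressing cells and less RNA per cell cannot be told apart.

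Promoter windows in RefSeq, the 250 bases before an annotated start on GRCm38.p6, were found for 7 of the 10 genes (10 windows), namely Ccnd3, Ccne1, Cdk4, Cdk6, Cdkn1a, Cdkn1b and Cdkn2c. 3 windows are shown, for a kinase and an E-type cyclin that were higher in F4/80high MAMs and an inhibitor that was lower there, because they hold different motifs. Capitals mark the E-box CACGTG, the GC box GGGCGG (or CCGCCC on the other strand) and CCAAT.
Cdk4 (chr10:127063285-127063534, plus strand): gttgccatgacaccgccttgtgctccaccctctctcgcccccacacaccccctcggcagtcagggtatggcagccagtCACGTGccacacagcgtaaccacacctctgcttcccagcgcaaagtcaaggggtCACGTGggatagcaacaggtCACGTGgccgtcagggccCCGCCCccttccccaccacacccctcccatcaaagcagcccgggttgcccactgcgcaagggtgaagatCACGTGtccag
Ccne1 (chr7:38107491-38107740, minus strand): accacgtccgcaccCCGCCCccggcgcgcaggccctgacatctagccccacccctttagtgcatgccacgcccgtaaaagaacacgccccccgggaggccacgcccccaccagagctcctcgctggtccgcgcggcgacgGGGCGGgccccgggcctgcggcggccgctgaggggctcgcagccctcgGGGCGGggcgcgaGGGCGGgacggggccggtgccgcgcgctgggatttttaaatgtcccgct
Cdkn1b (chr6:134920151-134920400, plus strand): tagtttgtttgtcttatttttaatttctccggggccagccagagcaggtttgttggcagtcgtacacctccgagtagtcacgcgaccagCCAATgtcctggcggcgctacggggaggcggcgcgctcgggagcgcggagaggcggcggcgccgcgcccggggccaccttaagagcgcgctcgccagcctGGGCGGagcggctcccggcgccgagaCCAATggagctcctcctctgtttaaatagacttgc

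The Cdk4 window held 4 E-boxes, starting 172, 118, 98 and 11 bases before the start, and 1 GC box. Among the other member windows only that of Cdk6 held an E-box, a single one 220 bases upstream, and 6.02% of all 32851 RefSeq windows held at least 1. Ccne1 held 4 GC boxes, at 236, 110, 62 and 49 bases upstream, a motif present in 32.7% of all windows. Cdkn1b held 2 CCAAT boxes, 161 and 35 bases upstream, and a GC box at 61, and CCAAT was present in 33.8% of all windows. No match overlapped another in these 3 windows. Both strands were searched, and 4 spellings of an E2F site (TTTCCCGC, TTTGGCGC, TTTCGCGC and TTTGCCGC) were in none of the 10 member windows and in 1.86% of all windows. The CHR motif TTTGAA was likewise in no member window and in 16.0% of all windows, and TATAAA was in that of Cdk6 and in 12.4% of all.

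Of the 10 genes, 9 differed between F4/80high and F4/80low MAMs: both E-type cyclins, both kinases and Cdkn2c were higher in F4/80high MAMs, whereas Ccnd2, Ccnd3, Cdkn1a and Cdkn1b were lower. Ccnd1 was the exception. A gene was called at an adjusted p under 0.1 by the quasi-likelihood test of edgeR, adjusted by Benjamini-Hochberg over all genes tested. This comparison called 54.9% of all genes (27.8% higher, 27.1% lower), against which 9 of 10 (5 higher, 4 lower) is to be read. The same 9 genes did not overlap between the 3 libraries of one subset and the 3 of the other, as did 58.4% of all genes. The median log2 fold change of the 10 was 0.34, against 0.01 over all genes, and hides opposite directions within the set.

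**Figure D1:**
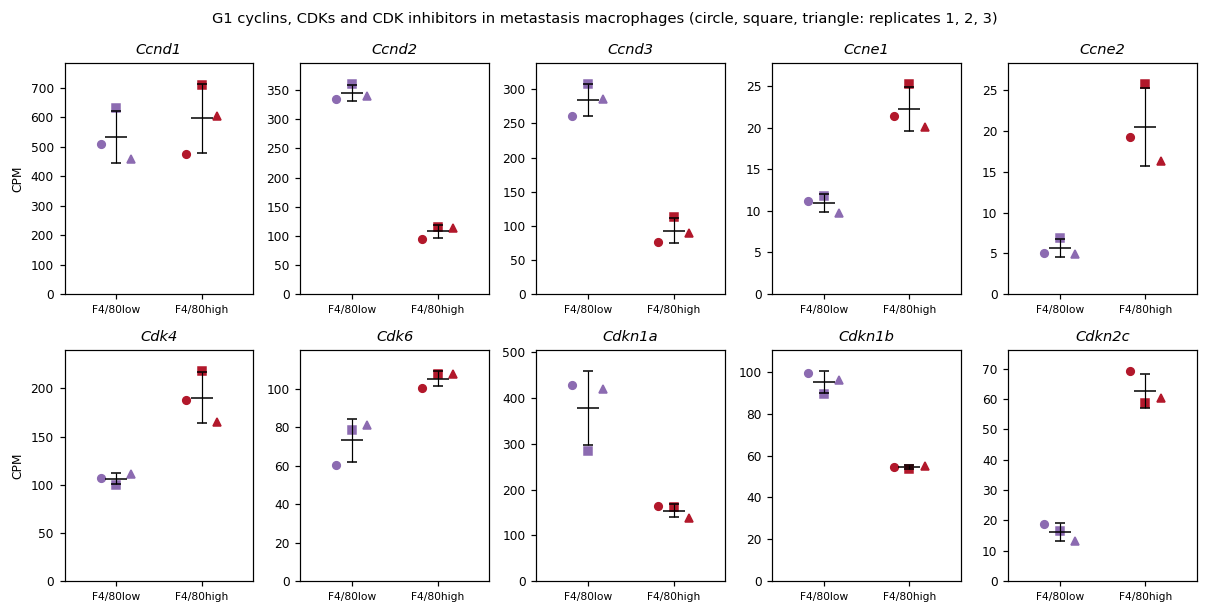
Level of each of the 10 genes (y axis, CPM, from 0) in F4/80low and F4/80high MAM libraries (x axis). Points are libraries, the horizontal mark is the mean and bars are 1 SD (n = 3). The 2 subsets share no value for any gene but Ccnd1.

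Ccnd1 (chr7:144483668-144493662, minus strand, GRCm39), a D-type cyclin induced by mitogens, was the most abundant of the 10 in MAMs per kilobase of exon. It stood at 508, 630.2 and 458 CPM in the F4/80low libraries and at 476, 708 and 602 CPM in the F4/80high libraries. The subsets overlapped, and the log2 difference of 0.16 was close to its SE of 0.17 (adjusted p = 0.458, edgeR). Standard errors (SE) are approximate, being the log2 fold change over the root of its F value.

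Ccnd2 (chr6:127102125-127129156, minus strand), the D-type cyclin best known in lymphocytes and growth factor responses, stood at 335, 361 and 341 CPM in F4/80low MAMs and at 95.1, 115 and 113 CPM in F4/80high MAMs. Every F4/80high library was below every F4/80low library, and the gene fell by 1.68 on the log2 scale (SE 0.10, adjusted p = 7.23e-06, edgeR). Ccnd3 (chr17:47815767-47910624, plus strand), the D-type cyclin most widely expressed in blood cells, behaved alike in direction and size. Its level was 260.3, 307 and 286 CPM in F4/80low and 76.1, 113 and 89.3 CPM in F4/80high MAMs, a log2 fold change of -1.62 (SE 0.15, adjusted p = 6.04e-05, edgeR). The current annotation places 2 noncoding genes, Gm64599 and Gm64600, on the same strand within Ccnd3, and reads could be shared with them.

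As Ccnd2 and Ccnd3 fell and Ccnd1 did not, the D-type cyclin make-up differed between the subsets. Per kilobase of merged exons, Ccnd1 made up 62.5, 64.8 and 58.8% of the D-type cyclin RNA in F4/80low and 84.4, 85.9 and 85.3% in F4/80high MAMs. The ratio of Ccnd1 to Ccnd2 ran from 2.64 to 3.44 in F4/80low and from 9.83 to 12.1 in F4/80high libraries, with no overlap. With 3 libraries against 3 the exact two-sided permutation test cannot go below 0.1, which is the value it gave (adjusted p = 0.275 over the 10 ratios tested in both tables). The ratio of Ccnd3 to Ccnd2 overlapped between the subsets (0.790 to 0.866 and 0.802 to 0.995, exact permutation p = 0.8).

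The E-type cyclins were low in MAMs in absolute terms and higher in the F4/80high subset. Ccne1 (chr7:37797404-37808264, minus strand), an activator of CDK2, stood at 11.2, 11.8 and 9.73 CPM in F4/80low and at 21.4, 25.2 and 20.1 CPM in F4/80high MAMs (log2 fold change 1.03, SE 0.13, adjusted p = 0.000323, edgeR). Ccne2 (chr4:11190303-11204947, plus strand), its paralog, stood at 5.09, 6.90 and 4.97 CPM in F4/80low and at 19.3, 25.8 and 16.4 CPM in F4/80high MAMs (log2 fold change 1.85, SE 0.21, adjusted p = 0.000183, edgeR). Ccne2 thus differed by the larger amount: its ratio to Ccne1, scaled by length, was 0.293 to 0.378 in F4/80low and 0.526 to 0.660 in F4/80high libraries (exact two-sided permutation p = 0.1, the smallest possible, adjusted p = 0.275).

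Both G1 kinases were higher in F4/80high MAMs. Cdk4 (chr10:126895180-126903789, plus strand) stood at 107, 100.2 and 111 CPM in F4/80low and 188, 218 and 165 CPM in F4/80high MAMs (log2 fold change 0.84, SE 0.11, adjusted p = 0.000475, edgeR). Cdk6 (chr5:3391485-3581008, plus strand) stood at 60.5, 78.2 and 80.9 CPM in F4/80low and 100.5, 107 and 107 CPM in F4/80high MAMs (log2 fold change 0.52, SE 0.12, adjusted p = 0.00641, edgeR). Per kilobase Cdk6 was the lesser kinase in every MAM library, at 0.135 to 0.186 of Cdk4 in F4/80low and 0.118 to 0.155 in F4/80high MAMs, and that ratio overlapped between the subsets (exact permutation p = 0.2).

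The 3 inhibitors did not move together. Cdkn2c (chr4:109517957-109524386, minus strand), the INK4 inhibitor p18, had the largest change of the 10, from 18.9, 16.7 and 13.1 CPM in F4/80low to 69.2, 58.8 and 60.2 CPM in F4/80high MAMs (log2 fold change 1.95, SE 0.14, adjusted p = 2.03e-05, edgeR). Cdkn1a (chr17:29309936-29319701, plus strand), which encodes p21, went the other way, with 429.6, 285 and 420.3 CPM in F4/80low and 164, 161 and 138 CPM in F4/80high MAMs (log2 fold change -1.29, SE 0.16, adjusted p = 0.000325, edgeR). Cdkn1b (chr6:134897364-134902476, plus strand), which encodes p27, was lower as well, at 99.6, 89.3 and 96.2 CPM in F4/80low and 54.7, 53.6 and 55.2 CPM in F4/80high MAMs (log2 fold change -0.80, SE 0.08, adjusted p = 8.79e-05, edgeR). In both subsets the p21 transcript exceeded that of p27 per kilobase, by 2.41 to 3.29 times in F4/80low and 1.88 to 2.26 times in F4/80high libraries (exact two-sided permutation p = 0.1, adjusted p = 0.275).

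Other measured features moved with these differences, and their part in them was not tested. The 14 dissociation genes, immediate early and heat shock genes that respond to tissue handling, summed to 12430 to 17170 CPM in F4/80low and 5713 to 8512 CPM in F4/80high MAMs, and 12 of the 14 were called lower in F4/80high (27.1% of all genes were). Dendritic cell markers (7 genes) summed to 376 to 669.9 CPM in F4/80low, led by Ccr7 at a mean of 211 CPM, against 10.3 to 16.9 CPM in F4/80high MAMs. Monocyte and neutrophil markers (5 genes in this table) summed to 1559 to 1598 CPM in F4/80low and 525 to 616 CPM in F4/80high MAMs. Type 1 lymphocyte markers (7 genes) summed to 17.3 to 35.9 and to 1.84 to 4.28 CPM, and the epithelial and tumor list (3 of its 10 genes in this table, led by Cdh1) to 198 to 284 and to 9.63 to 12.8 CPM, respectively. Cdh1 alone averaged 234 CPM in F4/80low and 9.24 CPM in F4/80high MAMs. The stroma and endothelium list (9 genes) summed to 87.0 to 191 CPM in F4/80low and to 282 to 577 CPM in F4/80high MAMs. Of its genes 6 were called higher (27.8% of all genes were), led in level by the fibroblast collagen genes Col1a2 (30.3 to 195 CPM on average) and Col3a1 (38.2 to 131 CPM). The largest log2 fold change of these was that of Lyve1 (3.05, SE 0.50, 0.437 to 3.65 CPM on average). Called lower were 2 (27.1% of all genes were), the endothelial genes Pecam1 (20.5 to 6.31 CPM) and Kdr (17.6 to 6.12 CPM).

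Genes around the set in the G1 pathway were read from lists in the same comparison, against 27.8% of all genes called higher and 27.1% lower. Of the other cyclins, CDKs and inhibitors, 7 of 11 tested were called higher in F4/80high MAMs and 1 lower: Ccna2, the S phase cyclin, had a log2 fold change of 1.46 (SE 0.13), the INK4 gene Cdkn2b one of 1.44 (SE 0.25, 8.07 CPM in F4/80high), its neighbor Cdkn2a one of 2.51 (SE 0.51, 1.40 CPM), and the INK4 gene Cdkn2d one of -0.73 (SE 0.11). Of the pocket proteins and E2F factors, 9 of 13 were higher and 1 lower, with the repressor E2f7 at 1.65 (SE 0.15), E2f1 at 0.99 (SE 0.09) and, lower, E2f2 at -0.72 (SE 0.11). Of the genes that control turnover of p27 and cyclins, 6 of 13 were higher and 2 lower, led by Skp2 (1.40, SE 0.20) and Cks1b (0.95, SE 0.16), which form part of the ubiquitin ligase that removes p27. The direction of the set's kinases and E-type cyclins was shared by all 22 S phase and G2/M markers, every one of which was called higher (27.8% of all genes were), with Cdk1 at 1.90 (SE 0.15), Ccnb1 at 1.89 (SE 0.18) and Plk1 at 1.72 (SE 0.14) on the log2 scale.

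Upstream regulators and p53 targets held calls in both directions, to be read against 27.8% of all genes called higher and 27.1% lower. Of 12 upstream factors tested, 4 were higher in F4/80high MAMs, among them Foxm1 (1.62, SE 0.12), Mybl2 (1.22, SE 0.14) and Myc (0.36, SE 0.09), and 6 were lower, among them Klf4 (-1.82, SE 0.35), Stat5a (-1.36, SE 0.13) and Foxo1 (-1.06, SE 0.11), on the log2 scale. Of 15 p53 targets other than Cdkn1a, 8 were lower, led by Pmaip1 (-3.09, SE 0.25) and Btg2 (-2.07, SE 0.19), and 3 were higher, led by Sesn1 (2.35, SE 0.16). The dissociation genes were lower in the same libraries, and their part was not tested.

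In the type 1 lymphocytes, by contrast, a single difference was called among the 10 genes over the 5 pairs of populations compared: Cdk6 was higher in LM CD49a+ NK cells than in MFL ILC1. That comparison called 3.58% of all genes (2.29% higher). None of the 10 was called in LM CD49a+ against LM CD49a- NK cells (0.140% of all genes called, 1 member at an unadjusted p under 0.05, none by DESeq2 or limma-voom). None was called in LM CD49a+ NK against MFL NK cells (0.647% of all genes, 3 members at an unadjusted p under 0.05, 2 called by DESeq2 and 1 by limma-voom), and none in LM CD49a- NK against MFL NK cells (0.0736%, 1 member at an unadjusted p under 0.05, none by either tool). MFL ILC1 against MFL NK cells likewise gave 0 of 10 by edgeR (3.06% of all genes, 0 at an unadjusted p under 0.05, 0 called by DESeq2 and 2 by limma-voom). Of all 13594 genes, an unadjusted p under 0.05 was reached by 1579 for LM CD49a+ against LM CD49a- NK cells. The number was 1324 for LM CD49a+ NK, 914 for LM CD49a- NK and 1138 for MFL ILC1, each against MFL NK cells. In that order DESeq2 called 543, 365, 161 and 667 genes and limma-voom 0, 307, 104 and 2645.

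**Figure D2:**
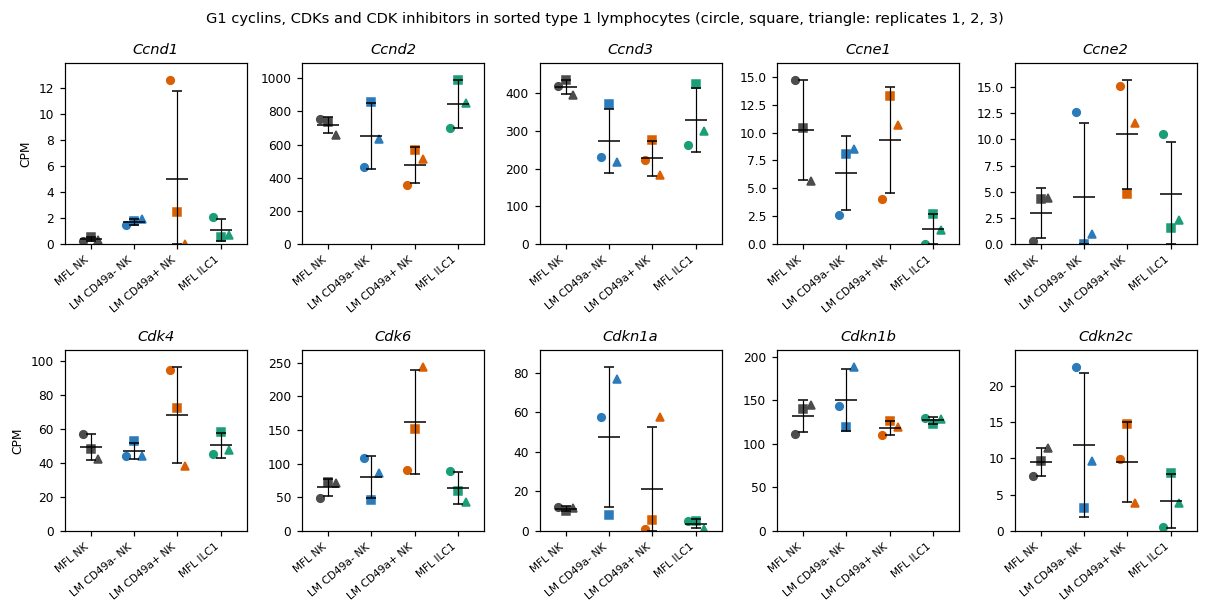
Level of each of the 10 genes (y axis, CPM, from 0) in the 4 type 1 lymphocyte populations (x axis). Points are libraries, horizontal marks are means and bars are 1 SD (n = 3), ended at 0 where the SD exceeds the mean. The 3 LM CD49a+ NK libraries are above all MFL libraries for Cdk6, and 3 of the 6 LM libraries stand above the rest for Cdkn1a.

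Cdk6, the kinase partner of D-type cyclins that is prominent in blood cells, stood at 49.6, 72.7 and 72.0 CPM in the MFL NK libraries, 108, 45.8 and 86.8 CPM in the LM CD49a- NK libraries, 90.0, 152 and 244 CPM in the LM CD49a+ NK libraries and 89.5, 59.6 and 43.5 CPM in MFL ILC1. Those of LM CD49a+ NK cells were above all 6 MFL libraries, the lowest of them only just, and overlapped with those of LM CD49a- NK cells. Averages were 162 CPM ± 77.6 (SD, n = 3) for LM CD49a+ NK cells against 64.2 ± 23.3 in MFL ILC1, a log2 fold change of 1.33 (SE 0.39, adjusted p = 0.0963, edgeR). Over the 18 alternatives and omissions tried for this difference the adjusted p ran from 0.00748 to 0.394 and passed in 6. It did not pass with the replicate block, with DESeq2 size factors or with only the populations compared in the fit. The call was lost on leaving out any single MFL library, LM CD49a- NK replicate 3 or LM CD49a+ NK replicate 2 or 3 (for the last, log2 fold change 0.91, adjusted p = 0.394, edgeR), and the gene also belongs to the signature of CD49a+ NK cells that the study drew from these libraries, which is not independent evidence of its direction.

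Against MFL NK cells the Cdk6 difference was of the same size but was not called (log2 fold change 1.32, SE 0.39, adjusted p = 0.242, edgeR), and against LM CD49a- NK cells it was 1.01 (SE 0.39, adjusted p = 0.375). A test of whether the CD49a+ to CD49a- difference in LM differs from the ILC1 to NK difference in MFL called none of the 10 genes (1.03% of all genes, 0 members at an unadjusted p under 0.05, 0 by DESeq2 or limma-voom), with Cdk6 at 1.02 (SE 0.55, adjusted p = 0.649, edgeR). A test for any difference among the 4 populations called none of the 10 either (4.77% of all genes, 4 members at an unadjusted p under 0.05, 2 called by DESeq2 and 2 by limma-voom), and Cdk6 had the smallest adjusted p, 0.114. In this last test 1857 of all 13594 genes had an unadjusted p under 0.05, DESeq2 called 1221 and limma-voom 786.

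The 3 genes whose log2 levels over the 12 lymphocyte libraries were most like Cdk6, by root mean square difference after centering among 8285 genes, were Hspa2 (0.367), Ncapd2 (0.385) and Paip2b (0.389). Ncapd2, a condensin subunit, averaged 51.2, 53.1, 103 and 41.5 CPM in MFL NK, LM CD49a- NK, LM CD49a+ NK cells and MFL ILC1, respectively. Hspa2, a heat shock protein 70 gene, averaged 25.5, 40.3, 59.1 and 32.4 CPM in the same order.

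Cdk4 was not distinguishable among the lymphocyte populations at this spread. It stood at 57.2, 48.4 and 42.1 CPM in the MFL NK libraries, 44.1, 52.7 and 44.3 CPM in the LM CD49a- NK libraries, 94.5, 72.3 and 38.4 CPM in the LM CD49a+ NK libraries and 45.1, 58.5 and 47.5 CPM in MFL ILC1. The CD49a+ NK cells of LM held both the highest and the lowest value, and the order of their libraries for Cdk4 was the reverse of that for Cdk6. The log2 difference of LM CD49a+ NK cells from MFL NK cells was 0.47 (SE 0.36, adjusted p = 0.859, edgeR) and from MFL ILC1 0.44 (SE 0.36, adjusted p = 0.719). The length-scaled Cdk6 to Cdk4 ratio accordingly ran from 0.227 to 1.52 within LM CD49a+ NK cells, wider than in the other 3 populations together (0.207 to 0.586), and did not differ among populations beyond this spread (exact permutation p = 0.59 over 369600 arrangements, adjusted p = 0.656).

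Ccnd2 was the most abundant of the 10 per kilobase of merged exons in all 4 lymphocyte populations. It stood at 756, 738 and 660.3 CPM in the MFL NK libraries, 463, 860.1 and 632 CPM in the LM CD49a- NK libraries, 357, 567 and 509.9 CPM in the LM CD49a+ NK libraries and 701, 990.4 and 853 CPM in the MFL ILC1 libraries. Every LM CD49a+ NK library was below every library of both MFL populations. The log2 difference from MFL ILC1 was -0.83 (SE 0.25, adjusted p = 0.114, edgeR) and that from MFL NK cells -0.59 (SE 0.25, adjusted p = 0.463), neither of them called. The first was called in 7 of its 18 alternatives and omissions, with an adjusted p between 0.00791 and 0.389.

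Ccnd3 stood at 419, 436 and 397 CPM in the MFL NK libraries, 232, 372 and 217 CPM in the LM CD49a- NK libraries, 224, 277 and 183 CPM in the LM CD49a+ NK libraries and 263, 426 and 299 CPM in MFL ILC1. Both LM populations were below MFL NK cells in every library, the populations that also differ in dissociation. The log2 difference from MFL NK cells was -0.87 (SE 0.26, adjusted p = 0.238, edgeR) for LM CD49a+ NK cells and -0.61 (SE 0.26, adjusted p = 0.723) for LM CD49a- NK cells. The first was called in 4 of its 18 alternatives and omissions (adjusted p 0.0585 to 0.642), which were DESeq2, no filter, the replicate block and omission of LM CD49a- NK replicate 2, and the second in none. Of the 10 genes, 4 did not overlap between LM CD49a+ NK and MFL NK libraries (Ccnd2 and Ccnd3 lower, Cdk6 and Ccne2 higher), where 20.1% of all genes did not, and 3 did not overlap between MFL ILC1 and LM CD49a+ NK cells (Ccnd2 lower, Cdk6 and Ccne1 higher), where 23.2% of all genes did not. For LM CD49a- NK against MFL NK cells 2 members did not overlap (Ccnd1 higher, Ccnd3 lower, 16.2% of all genes), for MFL ILC1 against MFL NK cells 2 (Ccne1 and Cdkn1a lower, 25.3%) and for the 2 LM populations none (9.82%).

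Ccnd1, the leading D-type cyclin of the MAMs, was nearly absent from the lymphocytes. It gave 3, 7 and 4 counts in MFL NK cells, 13, 16 and 24 in the LM CD49a- NK libraries, 131, 31 and 0 in the LM CD49a+ NK libraries and 24, 7 and 7 in MFL ILC1. The highest lymphocyte library, LM CD49a+ NK replicate 1, reached 12.7 CPM and the others at most 2.43 CPM, and the count of 0 allows up to 0.298 CPM at that depth, counting error only.

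**Figure D3:**
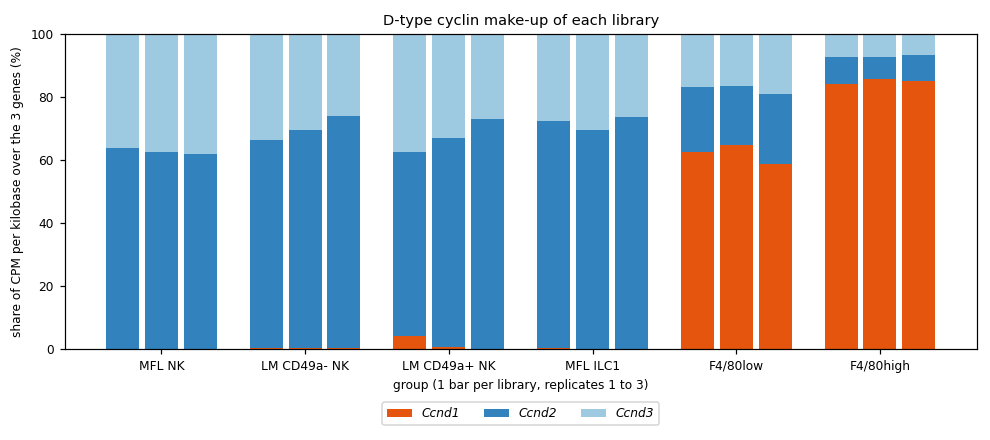
Share of Ccnd1, Ccnd2 and Ccnd3 in the summed D-type cyclin level (y axis, percent of CPM per kilobase of merged exons) in each of the 18 libraries (x axis, 1 bar per library). Ccnd1 is at most 4.09% in lymphocytes and at least 58.8% in MAMs.

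Ccnd2 made up 62.0 to 63.9% of the D-type cyclin RNA of MFL NK cells, 65.9 to 73.8% of that of LM CD49a- NK cells, 58.6 to 73.2% for the CD49a+ ones and 69.5 to 73.6% for MFL ILC1, and Ccnd3 nearly all of the rest. The order of Ccnd2 and Ccnd3 per length rests on the length used. With the longest transcript in place of merged exons, Ccnd2 made up 50.3 to 52.3% for MFL NK cells and 47.9 to 62.9% for the LM CD49a+ NK population, and in F4/80low MAMs Ccnd3 (27.8% ± 1.94, SD, n = 3) exceeded Ccnd2 (20.6% ± 1.46). The ratio of Ccnd3 to Ccnd2, whose differences between libraries do not depend on length, was 0.565 to 0.611 in MFL NK cells. It was 0.357 to 0.438 in MFL ILC1 and 0.350 to 0.511 in LM CD49a- NK cells, neither overlapping with MFL NK cells. In LM CD49a+ NK cells it was 0.365 to 0.638, which overlapped with MFL NK cells. The ratio did not differ over the 4 populations beyond the spread (exact permutation p = 0.11, adjusted p = 0.275).

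The E-type cyclins were sparse and scattered in lymphocytes. Ccne1 stood at 14.7, 10.4 and 5.65 CPM in the MFL NK libraries, 2.56, 8.09 and 8.51 CPM in the LM CD49a- NK libraries, 4.07, 13.3 and 10.7 CPM in the LM CD49a+ NK libraries, and 0, 2.71 and 1.23 CPM in MFL ILC1, where the count of 0 allows up to 0.254 CPM. All 3 MFL ILC1 libraries were below those of LM CD49a+ NK and MFL NK cells, but the log2 differences of -2.95 (SE 1.47, adjusted p = 0.665, edgeR) from MFL NK cells and 2.82 (SE 1.47, adjusted p = 0.421) for LM CD49a+ NK cells over MFL ILC1 were not called. Ccne2 ranged from 0 to 15.1 CPM over the 12 libraries and spread from 0 to 12.6 CPM within LM CD49a- NK cells alone, and no difference was detectable at this spread.

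Among the inhibitors, Cdkn1b had the narrowest range of the 10 genes relative to its level in lymphocytes. It lay between 110.5 and 188.9 CPM in all 12 libraries, with 112, 140.2 and 144 CPM in the MFL NK libraries and 110.5, 127 and 119 CPM in the LM CD49a+ NK libraries. Their log2 difference was -0.15 (SE 0.23, adjusted p = 0.979, edgeR). Cdkn2c stayed low, at 7.60, 9.58 and 11.4 CPM in the MFL NK libraries and 0.509, 7.98 and 3.88 CPM in MFL ILC1, which overlapped (log2 difference -1.20, SE 1.17, adjusted p = 1, edgeR), and ran from 3.21 to 22.6 CPM in the LM libraries.

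Cdkn1a split the LM libraries within their populations. It stood at 57.6, 8.20 and 77.0 CPM in the LM CD49a- NK libraries and at 1.26, 5.40 and 57.6 CPM in the LM CD49a+ NK libraries, against 12.2, 10.02 and 11.7 CPM in the MFL NK libraries and 5.18, 5.05 and 1.04 CPM in the MFL ILC1 libraries. LM CD49a- NK replicates 1 and 3 and LM CD49a+ NK replicate 3 were thus far above the other 9 libraries, and no population difference was called: the log2 difference was 2.07 (SE 1.08, adjusted p = 0.765, edgeR) for LM CD49a- NK over MFL NK cells, -1.15 (SE 1.05, adjusted p = 0.739) for LM CD49a+ over LM CD49a- NK cells and 2.50 (SE 1.11, adjusted p = 0.314) for LM CD49a+ NK cells over MFL ILC1. Without LM CD49a+ NK replicate 3 the last of these turned to -0.17 (adjusted p = 0.98, edgeR).

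The same 3 libraries had the highest sums of the 14 dissociation genes, 15080 and 14140 CPM in LM CD49a- NK replicates 1 and 3 and 12520 CPM in LM CD49a+ NK replicate 3. The sum in LM CD49a+ NK replicate 1, where Cdkn1a was 1.26 CPM, was 10370 CPM, and in the other 8 libraries it lay between 4600 and 7479 CPM. The 16 p53 targets summed to 1710, 1710 and 1552 CPM in these 3 libraries and to 949 to 1386 CPM in the other 9. Dendritic cell markers (7 genes, led in LM cells by Zbtb46) summed to 82.0 CPM in LM CD49a- NK replicate 3 and 47.8 CPM in LM CD49a+ NK replicate 3. Their sum was 11.6 CPM in LM CD49a- NK replicate 1 and at most 16.3 CPM in the remaining libraries. Of these markers, 5 averaged under 1 CPM in each LM population. The part of tissue handling or of other cells in the Cdkn1a values was not tested.

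**Figure D4:**
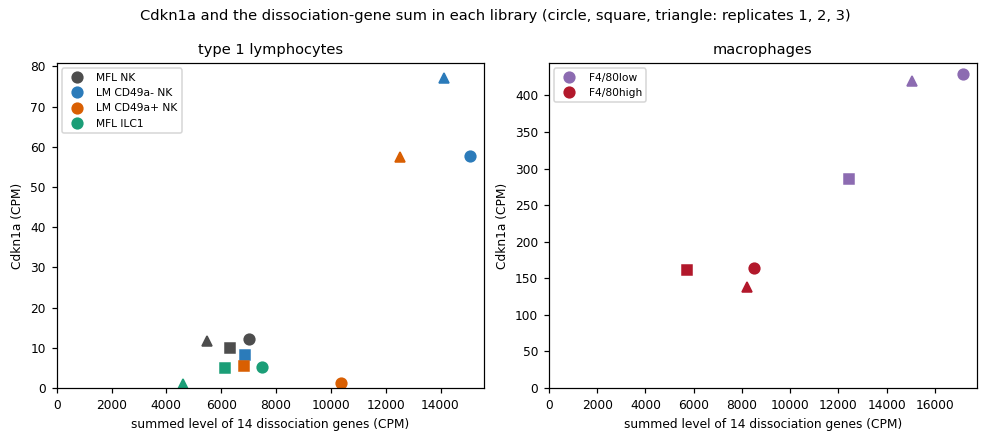
Cdkn1a level (y axis, CPM) against the summed level of 14 dissociation genes (x axis, CPM) in the 12 lymphocyte libraries (left) and the 6 MAM libraries (right), 1 point per library. The 3 lymphocyte libraries above 50 CPM of Cdkn1a have dissociation sums of 12520 CPM or more, and the F4/80low MAMs lie above the F4/80high MAMs on both axes.

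Per kilobase of merged exons, the 10 genes ranked differently in the 2 cell types, and the order and overlaps given here depend on the length used. In MFL NK cells the order was led by Ccnd2 at 76.3 CPM per kilobase, Ccnd3 at 45.1, Cdkn1b at 29.0 and Cdk4 at 14.3, with no overlap between these neighbors. The same 4 genes led in the other lymphocytes, with Ccnd2 at 69.3 in LM CD49a- NK cells, 50.8 in the CD49a+ ones and 90.1 in MFL ILC1, and with Ccnd3 and Cdkn1b overlapping in all 3. In F4/80low MAMs the leading genes were Ccnd1 at 111, Cdkn1a at 62.6, Ccnd2 at 36.7, Cdk4 at 30.9 and Ccnd3 at 30.8 CPM per kilobase, the last pair overlapping. In F4/80high MAMs Ccnd1 at 124.5 was followed by Cdk4 at 55.4 and Cdkn1a at 25.5, without overlap, and then by Cdkn1b, Ccnd2, Ccnd3 and Cdkn2c between 11.97 and 9.87. With the longest transcript the level of Ccnd3 moved the most: in MFL NK cells it reached 108 CPM per kilobase and overlapped Ccnd2 at 113, it no longer overlapped Cdkn1b in any lymphocyte population, and in F4/80high MAMs it ranked 4 and Cdkn1b 7 of the 10.

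**Figure D5:**
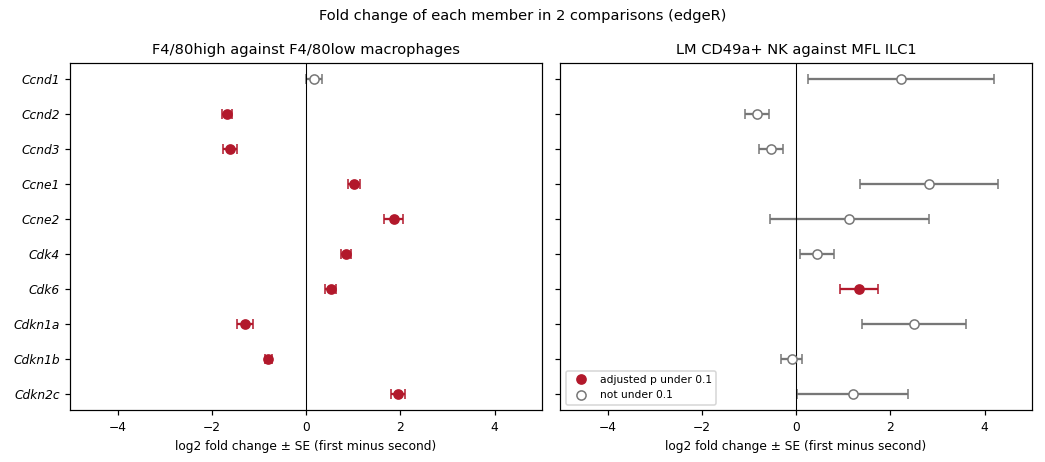
Log2 fold change of each of the 10 genes (x axis, points with 1 SE) in F4/80high against F4/80low MAMs (left) and LM CD49a+ NK cells against MFL ILC1 (right), edgeR. Filled points have an adjusted p under 0.1, 9 genes on the left and Cdk6 alone on the right, where SEs reach 1.97.

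The pathway lists gave few calls in the lymphocytes. In LM CD49a+ NK cells against MFL ILC1, 6 of the 22 S phase and G2/M markers were called higher (2.29% of all genes were), led by Top2a (log2 fold change 2.79, SE 0.37), Stmn1 (2.58, SE 0.56), Cenpf (2.30, SE 0.52) and Mki67 (2.28, SE 0.37). Those 22 markers summed to 1702 to 2431 CPM in the LM CD49a+ NK libraries, 1026 to 1444 CPM in the LM CD49a- NK libraries, 1137 to 1418 CPM in the MFL NK libraries and 738.5 to 895 CPM in the MFL ILC1 libraries, so the LM CD49a+ NK libraries lay above all others and the MFL ILC1 libraries below. Against MFL NK cells none of the 22 was called in LM CD49a+ NK cells (0.647% of all genes were), though 21 had a log2 fold change above 0. In MFL ILC1 against MFL NK cells 3 of the 22 were called lower, as were 228 of all 13594 genes. These were Top2a, Stmn1 and Mki67 (log2 fold changes -1.62, -2.15 and -1.35). None of the other cyclins, CDKs and inhibitors (9 tested), of the pocket proteins and E2F factors (13) or of the turnover genes (13) was called in any of the 5 pairs.

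LM CD49a+ NK cells against MFL ILC1 gave 311 genes called higher and 175 lower of all 13594. Of 13 upstream factors tested there, 2 were called higher in LM CD49a+ NK cells, Myc (1.51, SE 0.45, adjusted p = 0.0973) and Foxo1 (0.97, SE 0.27, adjusted p = 0.0698). Called lower was 1, Foxo3 (-1.42, SE 0.29, adjusted p = 0.0101, edgeR). Foxo3 was also called in MFL ILC1 against MFL NK cells, where it was higher (1.26, SE 0.28, adjusted p = 0.0195, edgeR), at means of 385 CPM in MFL ILC1, 161 CPM in MFL NK and 144 CPM in LM CD49a+ NK cells, and no upstream factor was called between the last pair. Of 15 p53 targets tested in LM CD49a+ NK cells against MFL ILC1, 1 was called higher, Pmaip1 (4.65, SE 1.30, adjusted p = 0.0771), and 1 lower, Trp53inp1 (-0.97, SE 0.26, adjusted p = 0.0566, edgeR). Of the 14 dissociation genes 3, Nr4a1, Hspa1b and Hspa1a, were called higher there too (log2 fold changes 4.70, 3.28 and 3.22), beside the difference in tissue handling. In LM CD49a+ against LM CD49a- NK cells, which came from the same digested tissue, 0.140% of all genes were called by edgeR and 0 by limma-voom. The only edgeR call in these pathway lists was Mcm7, a replication helicase subunit, at 118 CPM ± 28.7 against 43.4 ± 1.70 (SD, n = 3, log2 fold change 1.44, SE 0.29, adjusted p = 0.0887, edgeR). Of the 22 S phase and G2/M markers, Mcm7 among them, 20 had a log2 fold change above 0.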

How the data were processed

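Estimated counts were deposited for each gene, made by the authors from libraries trimmed with Trim Galore and quantified with Salmon, version 1.5.0 for the lymphocytes and 1.10.0 for the MAMs per the labels. Lymphocyte libraries came from a stranded total RNA kit and MAM libraries from a directional poly(A) kit. Both tables were deposited as gene identifiers without symbols, of which 53700 of 54309 and 13726 of 13759 matched the GRCm39 annotation. The MAM table was already restricted to fewer genes, and all of them passed the filter.

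Estimated counts were taken as deposited, filtered with filterByExpr, normalized by TMM and tested with edgeR 4.0.16 (quasi-likelihood, R 4.3.3). The 12 lymphocyte libraries were fitted together and the 6 MAM libraries apart from them. Calls required an adjusted p under 0.1 over all genes. P-values measure only the spread between these samples, which for the lymphocytes were sorted pools rather than single animals. For the MAMs no pooling is stated. DESeq2 1.42.0 and limma 3.58.1 (voom with sample quality weights, called limma-voom here) were alternatives. So were other size factors, no filter, fits of the populations compared alone, a replicate block and each library left out. The scripts were tested on simulated data. The 5 ratios per table were compared by exact two-sided permutation of library labels with 0.5 counts added. Levels between genes were divided by merged exon length.

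Library totals of 8795721 to 32267015 counts set the counting error, and a count of 0 was read as at most 3 counts, counting error only. The 10 genes and the lists were chosen with earlier results of these data known. All 10 genes are named, genes of a list only from its 4 largest calls in each direction, and the 3 genes most like Cdk6, the one member called in lymphocytes. Promoter windows came from RefSeq on GRCm38.p6, a build other than that of the counts, and were matched by symbol only.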

Additional observations from a re-analysis of the deposited data

How the results depend on the processing

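In F4/80high against F4/80low MAMs 9 of the 10 genes were called under every alternative and every omitted library. In lymphocytes the number of members called moved with the method. For LM CD49a+ NK against MFL NK cells (0 members) DESeq2 called 2, limma-voom 1, no filter 2 and omission of a library 0 to 1 (1 without LM CD49a- NK replicate 2). For MFL ILC1 against MFL NK cells (0) limma-voom called 2. For LM CD49a+ NK cells against MFL ILC1 (1) DESeq2 size factors, the populations compared alone and an adjusted p under 0.05 gave 0, DESeq2 and limma-voom 2, no filter 3 and omission 0 to 2. The call of Cdk6 was lost on omission of any single MFL library, LM CD49a- NK replicate 3 or LM CD49a+ NK replicate 2 or 3. For any difference among the 4 populations (0) DESeq2 and limma-voom called 2, no filter 4 and omission 0 to 2, and the number of ratios called (0) was 0 to 1 on omission. The ratio called was Ccnd1 to Ccnd2 in lymphocytes, on omission of LM CD49a+ NK replicate 3, whose Ccnd1 count was 0. Its exact permutation p was 0.00299 then, against 0.581 with all libraries. The Cdkn1a difference of LM CD49a+ NK cells from MFL ILC1 reversed to -0.17 without LM CD49a+ NK replicate 3 and reached 3.07 without another library. The cause of these changes was not tested.

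Same-numbered libraries correlated little in their deviations from group means (-0.0452 to 0.0981 in lymphocytes and -0.0145 to 0.172 in MAMs). Differently numbered libraries were not compared, so these values cannot show whether the samples are paired. The paper describes independent sortings of pooled MFL and LM samples, and each replicate number runs through all lymphocyte populations. Same-numbered lymphocyte libraries may therefore share a sort, which the main fit does not model. With the replicate block 1 member was called for LM CD49a+ NK against MFL NK cells (Ccnd3, adjusted p = 0.0913, edgeR), 1 for LM CD49a+ NK cells against MFL ILC1 (Ccnd2, adjusted p = 0.0563, edgeR, in place of Cdk6, 0.13) and 1 for any difference (Ccnd3, 0.0847).

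Over all genes, 19 calls between the LM populations became 543 with DESeq2, 200 without a filter, 0 with limma-voom, 3 with those populations alone and 5 to 267 on omission of a library. The 88 for LM CD49a+ NK against MFL NK cells became 365, 371 and 307 (DESeq2, no filter, limma-voom), the 10 for LM CD49a- NK against MFL NK cells 161, 158 and 104 (3 alone), the 486 for LM CD49a+ NK cells against MFL ILC1 1010, 774 and 935, and the 416 for MFL ILC1 against MFL NK cells 667 with DESeq2, 2645 with limma-voom and 1228 alone. The interaction moved from 140 to 349 (DESeq2) and 264 (no filter), and any difference from 649 to 1221 and 1335. On omission of a library these counts ran from 26 to 168, 1 to 110, 257 to 708 and 268 to 562, the interaction from 75 to 256 and any difference from 387 to 967, lowest without an MFL library and highest without LM CD49a- NK replicate 2 or 3. The median log2 fold change of all genes was -0.27, -0.36 and -0.28 with limma-voom, against -0.04, -0.09 and -0.07 with edgeR, for LM CD49a+ NK against MFL NK, LM CD49a- NK against MFL NK and LM CD49a+ NK against MFL ILC1. Sparse counts limit Ccnd1, Ccne1, Ccne2 and Cdkn2c in lymphocytes.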
